A study of Homo sapiens with 9 samples.

Results

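The genes described here are 35 genes of cholesterol and fatty acid synthesis and of its control, chosen by symbol as a pathway known to be regulated jointly by SREBP and NF-Y, out of 27111 genes in the files. They comprise 18 enzymes of the sterol pathway, 9 genes of fatty acid and glycerolipid synthesis, 5 genes of SREBP control and 3 genes of cholesterol transport. All 35 were expressed highly enough to be among the 17108 genes tested.

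Expression was measured by RNA-seq in multicellular tumor spheroids (MTSs) of PC-3, an established line from a human prostate cancer metastasis. PC-3 cells had been infected with lentivirus carrying the empty pSIN vector (Empty), the long splice form of NF-YA (NF-YAl) or its short form (NF-YAs). All 3 lines were selected with puromycin, and the overexpressed forms are murine. MTSs were grown from 5000 cells in Matrigel-containing medium for 7 days, 18 MTSs were pooled for each library, and each line has 3 libraries from independent experiments, lettered A, B, C except in NF-YAl, where the letters are A, B, D.

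NF-Y is a trimer that binds the CCAAT box, in which NF-YA reads the sequence and NF-YB and NF-YC provide a histone-like base. The SREBP factors, encoded by SREBF1 and SREBF2, are made as membrane proteins of the endoplasmic reticulum. SCAP escorts them to the Golgi, where they are cleaved to their active form, and the INSIG proteins hold SCAP back when sterols are plentiful. On sterol gene promoters SREBP acts together with NF-Y, and tumor cells draw on this pathway for membrane lipid.

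Reference promoters were searched for the letters that these factors recognise, CCAAT for NF-Y and TCACNCCAC as a common form of the sterol element. The 250 bases before each annotated start were read on both strands in RefSeq promoter sequence of GRCh38.p14, where 31 of the 35 genes had an entry and FDFT1, SQLE, ACAT2 and FASN had none. Of the 31 genes, 20 (64.5%) held CCAAT in at least 1 promoter entry, against 37% of all 27305 genes with an entry and 32% of all 35116 promoters. Since these genes were named for joint regulation by NF-Y, this share describes the choice and supports nothing. The letters were present in 13 of 15 sterol enzymes (all but PMVK and CYP51A1), and 9 of these 13 had more than 1 match. They were present in 4 of 8 fatty acid genes (ACACA, ACLY, SCD and ACSS2, but not ELOVL6, FADS1, FADS2 or LPIN1), in SREBF2 and INSIG1, and in STARD4. TCACNCCAC was found in SREBF2 only, and in 0.883% of all promoters. The absence of a match says only that these letters are not in this window.

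The stretches below span the matches of 8 genes and are written 5′ to 3′ along the gene in lower case, with matches in capitals. CCAAT marks the gene's own strand, ATTGG the opposite strand and TCACCCCAC the sterol element form. HMGCS1, MVD, MSMO1, NSDHL, SCD and INSIG1 are shown because they had the largest falls in NF-YAl among genes with a match. TM7SF2 is shown because it differed between the NF-YA lines, and SREBF2 because it holds both motifs. MVK also differed between the lines and held 5 CCAAT matches, but is not shown. Coordinates are those of GRCh38.p14.
HMGCS1 (chr5:43313496-43313579, minus strand): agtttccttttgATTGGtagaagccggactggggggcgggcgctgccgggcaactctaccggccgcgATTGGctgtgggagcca
MVD (chr16:88663160-88663262, minus strand): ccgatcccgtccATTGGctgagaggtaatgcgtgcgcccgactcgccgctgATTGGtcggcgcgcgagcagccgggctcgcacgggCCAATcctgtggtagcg
MSMO1 (chr4:165327472-165327651, plus strand): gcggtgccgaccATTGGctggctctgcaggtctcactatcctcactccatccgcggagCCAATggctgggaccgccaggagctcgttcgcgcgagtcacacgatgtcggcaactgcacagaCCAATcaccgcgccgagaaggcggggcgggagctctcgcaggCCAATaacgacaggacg
NSDHL (chrX:152830823-152830995, plus strand): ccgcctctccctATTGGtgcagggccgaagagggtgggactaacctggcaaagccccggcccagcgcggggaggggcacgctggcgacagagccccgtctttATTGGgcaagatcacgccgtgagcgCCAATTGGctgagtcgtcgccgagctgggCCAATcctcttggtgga
TM7SF2 (chr11:65111786-65111814, plus strand): ccccgagcgccgATTGGctggtgtgctgg
SCD (chr10:100346992-100347063, plus strand): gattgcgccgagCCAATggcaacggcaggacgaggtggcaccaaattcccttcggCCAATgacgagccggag
INSIG1 (chr7:155297696-155297724, plus strand): cgccggcctcccATTGGttgcggccgcct
SREBF2 (chr22:41832960-41833015, plus strand): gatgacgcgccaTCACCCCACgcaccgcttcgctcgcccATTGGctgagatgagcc
In NSDHL the run CCAATTGG contains a match on each strand that overlap by 2 bases. MSMO1 and NSDHL carried 4 and 5 matches, while TM7SF2, INSIG1 and SREBF2 carried 1 CCAAT match each.

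**Figure D1:**
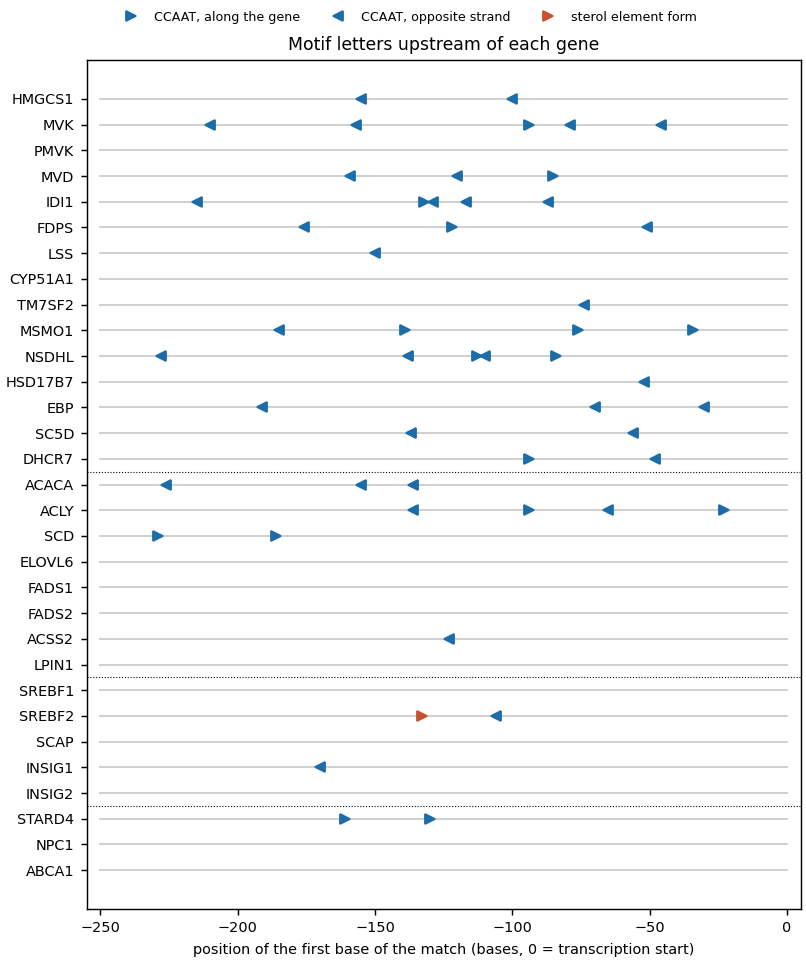
Position of CCAAT (blue) and of TCACNCCAC (red) in the 250 bases before the transcription start of the 31 genes with a RefSeq promoter, in bases from the start, with right-pointing marks for the gene's own strand and left-pointing marks for the opposite strand. Where a gene has several promoter entries, all are drawn on 1 line. Matches are seen in 13 sterol enzymes and in none of ELOVL6, FADS1, FADS2 and LPIN1.

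The labels were checked first on NFYA, which was measured at 89.2, 96.7 and 89.4 counts scaled to library size (CPM) in Empty A, B and C, at 287, 383 and 353 CPM in NF-YAl A, B and D, and at 264, 263 and 254 CPM in NF-YAs A, B and C. Both lines were above every Empty library (edgeR log2FC 1.89 and 1.51, adjusted p = 6.4e-07 and 2.2e-06), although reads of a murine transgene are counted here only where they align to human transcripts. NFYB and NFYC, which encode the partner subunits, did not pass in either line (log2FC 0.17 to 0.62, edgeR adjusted p 0.012 to 0.37). For both, however, every NF-YAl library lay above every Empty library. Both were called higher in NF-YAl with DESeq2 (adjusted p = 0.0038 and 0.0037) and without NF-YAl A (edgeR adjusted p = 0.0018 and 0.0032). Libraries held 18076979 to 27163976 expected counts, of which 2.66% to 7.71% were rRNA. Epithelial markers were present in every library, summing to 1170.5 to 1293.5 CPM in Empty, 744 to 759 CPM in NF-YAl and 729 to 833 CPM in NF-YAs. The keratins carry this sum. EPCAM, at 0.945 to 1.05 CPM in Empty, rose in both lines (log2FC 2.16 and 1.46, edgeR adjusted p = 5.5e-05 and 0.00088), and CDH1 fell in NF-YAs (-1.33, 0.00093) and not in NF-YAl (0.17, 0.59). KLK3, a marker of luminal prostate cells, was at 0 in all 9 libraries. The summed level of 3 hepatocyte markers was at most 1.86 CPM, and that of 4 leukocyte markers at most 1.19 CPM. The sum of 3 endothelial markers was 12.6 to 14.2 CPM in Empty, 6.13 to 7.05 CPM in NF-YAl and 7.81 to 8.66 CPM in NF-YAs, with VWF lower in NF-YAl (log2FC -3.23, edgeR adjusted p = 1.9e-06), PECAM1 lower in NF-YAs (-1.73, 4.8e-05) and CDH5 at most 0.433 CPM. These marker levels move with the groups, and their part in the results below was not tested.

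All values below are TMM-scaled CPM of whole genes unless another scale is named, and differences are log2FC with their SE from edgeR's quasi-likelihood test. A gene was said to fall or rise where its p-value, adjusted over all tested genes by Benjamini-Hochberg, was under 0.01. The 2 lines were each compared with the same 3 Empty libraries, so their differences from Empty are not independent of each other. The fit shares a spread for each gene over all 3 groups. Leaving out a library of either line can therefore change the adjusted p of the other line, with its log2FC almost unchanged. In bulk MTS RNA, fewer cells of a type and less RNA per cell cannot be told apart.

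In NF-YAl MTSs 19 of the 35 genes fell and 1, SCAP, rose, against 9.54% of all tested genes that fell and 10% that rose. In NF-YAs MTSs 14 fell and 1, again SCAP, rose, against 10.5% and 12.1% of all tested genes. The median log2FC of the 35 genes was -0.60 in NF-YAl and -0.50 in NF-YAs, while the median over all tested genes was 0.01 and 0.00. Every NF-YAl library lay below every Empty library for 29 of the 35 genes, compared with 21.4% of all tested genes. In NF-YAs this held for 26 genes, compared with 27.1% of all tested genes. A fall past a log2FC of -1 was reached by 7 genes in NF-YAl (SCD, NSDHL, INSIG1, MSMO1, HMGCS1, MVD and ACSS2) and by 5 in NF-YAs (SCD, MSMO1, INSIG2, MVD and NSDHL), against backgrounds of 3.50% and 3.90%.

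**Figure D2:**
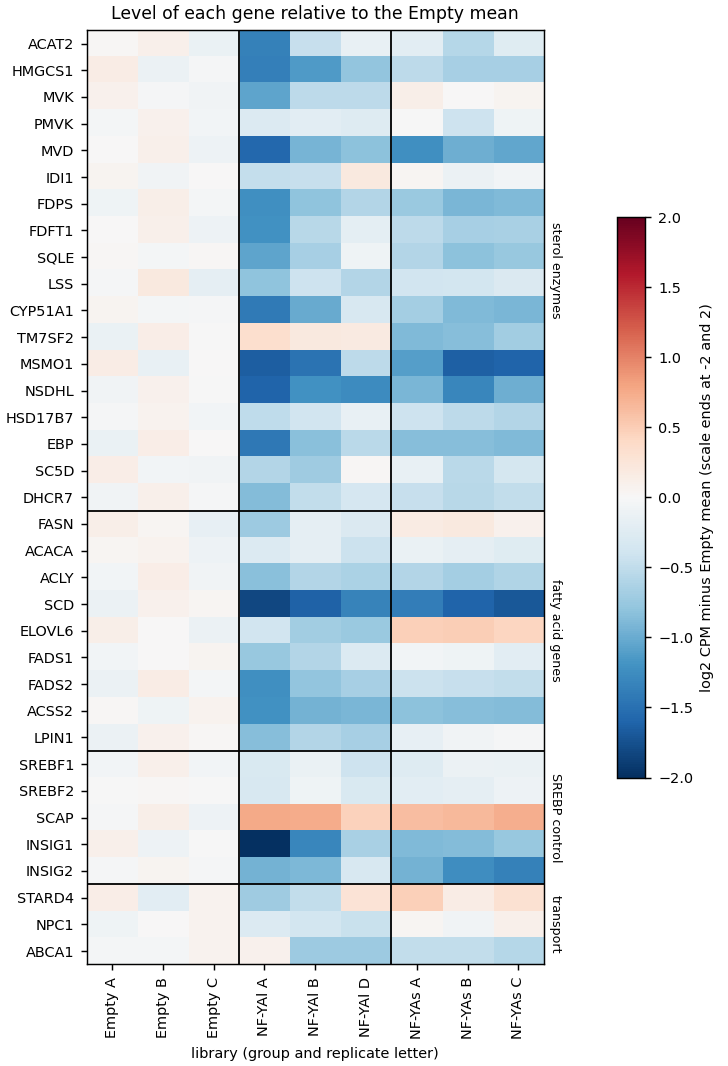
Level of each of the 35 genes (rows) in each of the 9 libraries (columns), as log2 CPM minus the mean of the 3 Empty libraries, with blue below and red above Empty and black lines between groups of genes and of libraries. NF-YAl and NF-YAs columns are mostly blue in the sterol rows, SCAP is red in both lines, and NF-YAl D is paler than NF-YAl A in most sterol rows.

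These counts depended on the libraries and on the scale. For NF-YAl the 19 became 11 without Empty A, 11 without Empty B and 12 without NF-YAl B, 25 without NF-YAl D, and 10 when only Empty and NF-YAl were fitted. For NF-YAs the 14 became 9 without NF-YAs B and 9 without NF-YAs C. It became 19 without NF-YAl A, 18 without NF-YAl D, and 21 when only Empty and NF-YAs were fitted. Which line had more falls therefore depended on the fit, with 19 against 14 in the shared fit and 10 against 21 in the 2-group fits. On deposited TPM without further scaling, 1 gene fell in each line, and there the median of all tested genes was shifted by 0.27 in NF-YAl and 0.16 in NF-YAs (log2). After each library was rescaled by its median ratio, 16 and 13 genes fell on the TPM scale.

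The sterol pathway begins with HMGCS1, which condenses acetoacetyl-CoA and acetyl-CoA into the precursor of mevalonate (chr5:43287572-43313614 in GRCh37, minus strand). It was measured at 128, 107 and 114 CPM in Empty, 44.8, 52.5 and 67.2 CPM in NF-YAl and 80.5, 73.6 and 73.0 CPM in NF-YAs. The 3 groups did not overlap, with NF-YAl lowest. HMGCS1 fell in NF-YAl (log2FC -1.09 ± 0.14, adjusted p = 9.8e-05) and in NF-YAs (-0.62 ± 0.13, 0.0035). The NF-YAs call was lost without Empty A, Empty C, NF-YAs B or NF-YAs C (edgeR adjusted p 0.013 to 0.019).

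MVD, the decarboxylase that makes isopentenyl diphosphate (chr16:88718343-88729569, minus strand), stood at 104, 111 and 95.6 CPM in Empty, 34.3, 54.0 and 58.0 CPM in NF-YAl and 44, 52.2 and 50.1 CPM in NF-YAs. FDPS, which joins these units into farnesyl diphosphate (chr1:155278539-155290457, plus strand), stood at 189, 218 and 196 CPM in Empty, 85.8, 115 and 134 CPM in NF-YAl and 120, 107 and 109 CPM in NF-YAs. For both genes all libraries of either line were below all Empty libraries, and the lines overlapped each other. MVD fell by 1.08 on the log2 scale in each line (adjusted p = 0.00037 in NF-YAl and 0.00031 in NF-YAs, edgeR), and FDPS by 0.85 in each (0.00065 and 0.00059). Reads of FDPS can be shared with FDPSP2, a near-identical processed copy listed at 13.1 to 23.0 CPM, which did not pass in either line (log2FC 0.06 and -0.24). RUSC1-AS1, whose extent overlaps FDPS on the other strand, fell in NF-YAs (log2FC -1.08, edgeR adjusted p = 0.0038) and had -0.67 in NF-YAl (0.044).

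MVK, the mevalonate kinase, behaved differently in the lines and is described with the direct comparison. The other enzymes of the mevalonate segment did not pass in either line: ACAT2, which makes acetoacetyl-CoA, had log2FC of -0.58 and -0.34, PMVK, the phosphomevalonate kinase, -0.25 and -0.16, and IDI1, the isopentenyl diphosphate isomerase, -0.21 and -0.04. IDI1 was at 20.2, 20.2 and 32.4 CPM in NF-YAl A, B and D against 26.8 to 29.2 CPM in Empty, so the line's libraries lay on both sides of Empty. Without NF-YAl D, both ACAT2 and IDI1 were called lower in NF-YAl (edgeR adjusted p = 0.0057 and 0.0024).

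In squalene synthesis and cyclisation, 1 call was made in each line. FDFT1, which makes squalene, did not pass (log2FC -0.60 ± 0.19 and -0.62 ± 0.19, adjusted p = 0.032 and 0.025, edgeR). It passed in NF-YAl without NF-YAl D (0.0011) and in NF-YAs without NF-YAl A or D (edgeR adjusted p = 0.00044 and 0.0030). SQLE, the squalene epoxidase and a control point of the pathway, was at 183, 175 and 183 CPM in Empty, 86.3, 114 and 169 CPM in NF-YAl and 120, 102 and 106 CPM in NF-YAs. All libraries of both lines were below Empty, but only the NF-YAs fall passed (-0.72 ± 0.19, edgeR adjusted p = 0.0096), and that call was lost without any 1 of Empty A, B, C, NF-YAl B or NF-YAs A, B, C (0.015 to 0.044). In NF-YAl the log2FC of SQLE was -0.55 ± 0.18 (0.039) and, without NF-YAl D, -0.85 and called (edgeR adjusted p = 0.00015). LSS, which closes the sterol rings, was at 160, 187 and 144 CPM in Empty, 92.7, 122 and 108 CPM in NF-YAl and 125, 126 and 133 CPM in NF-YAs. It fell in NF-YAl (-0.60 ± 0.12, 0.0025), a call lost without Empty B (edgeR adjusted p = 0.015), and had -0.36 ± 0.12 in NF-YAs (0.038).

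The enzymes that turn lanosterol into cholesterol included the largest falls of the sterol set. CYP51A1, the lanosterol demethylase (chr7:91714301-91764117, minus strand), was at 209, 197 and 199 CPM in Empty, 74.9, 100 and 161 CPM in NF-YAl and 125, 109 and 107 CPM in NF-YAs. NF-YAl ranged more widely than the other groups, its D library lying nearest to Empty. CYP51A1 fell by 0.85 in NF-YAl and 0.82 in NF-YAs (log2, SE 0.21 for each, adjusted p = 0.0082 and 0.0084, edgeR). Each call was lost on leaving out any 1 of 7 libraries, among them each Empty library and NF-YAl B (0.012 to 0.037).

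MSMO1, the sterol C4 methyl oxidase (chr4:166248819-166264316, plus strand), was at 78.1, 63.4 and 70.9 CPM in Empty, 22.3, 25.0 and 49.1 CPM in NF-YAl and 32.6, 22.5 and 22.9 CPM in NF-YAs. NSDHL, the next enzyme of the demethylation complex (chrX:151999511-152038273, plus strand), was at 40.7, 45.6 and 42.4 CPM in Empty, 13.8, 18.2 and 17.7 CPM in NF-YAl and 22.5, 17 and 21.6 CPM in NF-YAs. Both genes were below Empty in all libraries of both lines. MSMO1 fell by 1.14 ± 0.25 in NF-YAl and 1.45 ± 0.25 in NF-YAs (log2, edgeR adjusted p = 0.0045 and 0.00089), and the NF-YAl call was lost without any Empty library or without NF-YAl B (0.011 to 0.023). NSDHL fell by 1.37 ± 0.14 and 1.07 ± 0.14 (2.1e-05 and 8.9e-05), the largest fall of a sterol enzyme in NF-YAl.

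EBP, the sterol isomerase, was at 99.4, 119 and 109 CPM in Empty, 40.2, 60.5 and 74.6 CPM in NF-YAl and 60.4, 59.8 and 58.9 CPM in NF-YAs. DHCR7, which makes cholesterol from its last precursor, was at 153, 171 and 158 CPM in Empty, 87.6, 114 and 127 CPM in NF-YAl and 117, 109 and 114 CPM in NF-YAs. All libraries of both lines were below Empty for both genes. EBP fell by 0.90 ± 0.17 and 0.87 ± 0.17 (log2, edgeR adjusted p = 0.0018 and 0.0020) and DHCR7 by 0.55 ± 0.12 and 0.50 ± 0.12 (0.0047 and 0.0072). The EBP call was lost in both lines without Empty B, and in NF-YAs also without NF-YAs B or C. The DHCR7 call was lost in both lines without any 1 Empty library or NF-YAl B, and in NF-YAs also without NF-YAs A, B or C (edgeR adjusted p 0.010 to 0.037 over all these). HSD17B7, a ketoreductase of the demethylation complex, and SC5D, the lathosterol desaturase, did not pass in either line (log2FC -0.35 and -0.53, and -0.40 and -0.35). HSD17B7 is uncertain because its copy HSD17B7P2, listed at 1.19 to 4.40 CPM, can share its reads. HSD17B7P2 itself fell in NF-YAs (log2FC -1.44, edgeR adjusted p = 0.00067) and was higher in NF-YAl than in NF-YAs (1.06, 0.0093), the latter call being lost on leaving out any 1 library except NF-YAl A or D (0.015 to 0.042). Without NF-YAl D, SC5D was called lower in NF-YAl (-0.66, edgeR adjusted p = 0.00085). HSD17B7 was called lower in NF-YAs without NF-YAl A or D (0.0048 and 0.0041) and with DESeq2 (adjusted p = 0.0036).

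**Figure D3:**
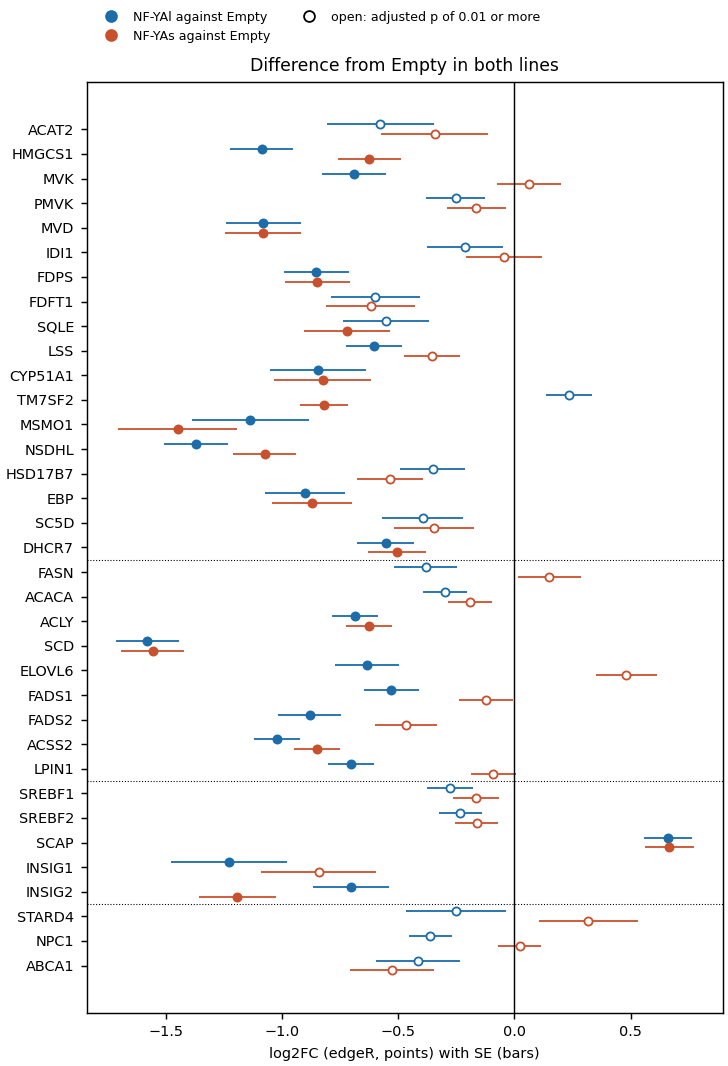
log2FC against Empty (points) with SE (bars) of the 35 genes in NF-YAl (blue) and NF-YAs (red), with filled points where the edgeR adjusted p was under 0.01 and dotted lines between the sterol enzymes, fatty acid genes, SREBP control and transport. Points of the lines lie close together for most sterol enzymes and for SCD, and apart for TM7SF2, MVK and ELOVL6.

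As a set, the sterol enzymes had 10 of 18 fall in each line and none rise. Over all tested genes 9.54% fell in NF-YAl and 10.5% in NF-YAs. The median log2FC of the sterol enzymes was -0.60 in NF-YAl and -0.62 in NF-YAs, set beside 0.01 and 0.00 over all tested genes. Of these enzymes 17 had a negative log2FC in each line, the exceptions being TM7SF2 in NF-YAl and MVK in NF-YAs. The libraries of NF-YAl were unlike each other in this set. Taking for each library the median over the 18 enzymes of log2 CPM minus the Empty mean, NF-YAl A, B and D stood at -1.14, -0.60 and -0.33, whereas NF-YAs A, B and C stood at -0.53, -0.66 and -0.66 and the Empty libraries between -0.03 and 0.09. Among the 3 NF-YAl libraries, A was the lowest for 16 of the 18 enzymes and D the highest for 14.

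Of the fatty acid genes 7 of 9 fell in NF-YAl and 3 of 9 in NF-YAs, against 9.54% and 10.5% of all tested genes. Their medians were -0.68 and -0.19, and the difference in counts was not itself tested. It depended on the shared fit. With only the 2 groups fitted, ELOVL6 and FADS1 were not called in NF-YAl (edgeR adjusted p = 0.021 and 0.017). In NF-YAs FADS2 was then called lower (0.00034) and ELOVL6 higher (edgeR adjusted p = 0.0016). The desaturase SCD, which makes oleate and palmitoleate (chr10:102106990-102124583, plus strand), had the highest TPM of the 35 genes in Empty (228 ± 22, SD, n = 3). It stood at 998, 1142 and 1109 CPM in Empty, 305, 352 and 429 CPM in NF-YAl and 414, 358 and 334 CPM in NF-YAs. The lines overlapped each other far below Empty. SCD fell by 1.58 ± 0.14 in NF-YAl and 1.56 ± 0.14 in NF-YAs (log2, edgeR adjusted p = 7.1e-06 and 6.5e-06), which is 2.99-fold and 2.94-fold lower.

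The enzymes that supply acetyl-CoA also fell in both lines. ACLY, which cleaves citrate, was at 393, 444 and 387 CPM in Empty, 228, 270 and 263 CPM in NF-YAl and 271, 254 and 268 CPM in NF-YAs. ACSS2, which activates acetate, was at 148, 137 and 153 CPM in Empty, 63.0, 75.1 and 77.4 CPM in NF-YAl and 82.6, 80.4 and 79.9 CPM in NF-YAs. ACLY fell by 0.68 ± 0.10 and 0.63 ± 0.10 (log2, edgeR adjusted p = 0.00027 and 0.00043) and ACSS2 by 1.02 ± 0.10 and 0.85 ± 0.10 (1.6e-05 and 4.8e-05). No omission of a library changed these calls or those of SCD.

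The enzymes that build the chain itself gave smaller values. ACACA, the acetyl-CoA carboxylase, did not pass (log2FC -0.30 and -0.19), nor did FASN, the fatty acid synthase, at 563, 531 and 462 CPM in Empty, 312, 457 and 425 CPM in NF-YAl and 582, 594 and 550 CPM in NF-YAs. FASN thus lay below Empty in NF-YAl and overlapped Empty in NF-YAs (log2FC -0.38 ± 0.14 and 0.15 ± 0.14, edgeR adjusted p = 0.049 and 0.42).

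The desaturases of polyunsaturated fatty acids fell in NF-YAl. FADS2 was at 519, 622 and 545 CPM in Empty, 239, 323 and 354 CPM in NF-YAl and 415, 405 and 399 CPM in NF-YAs. FADS1 was at 165, 172 and 178 CPM in Empty, 101, 115 and 141 CPM in NF-YAl and 164, 161 and 147 CPM in NF-YAs. FADS2 fell in NF-YAl (log2FC -0.88 ± 0.14, adjusted p = 0.00041) and had -0.47 ± 0.13 in NF-YAs (0.017), whereas FADS1 had -0.53 ± 0.12 (0.0046) and -0.12 ± 0.12 (0.45). In NF-YAs FADS2 was called lower without NF-YAl A or D (0.0010 and 0.0053), with DESeq2 (adjusted p = 0.0047) and with only the 2 groups fitted (0.00034). The FADS1 call in NF-YAl was lost without any Empty library or without NF-YAl B (edgeR adjusted p 0.013 to 0.024). Between the lines directly, neither passed (-0.41 and adjusted p = 0.026 for FADS1, -0.41 and 0.044 for FADS2). There FADS1 was called lower in NF-YAl with DESeq2 (adjusted p = 0.0088). Both were called without NF-YAl D (edgeR adjusted p = 0.0012 and 0.0088) and with a replicate block (0.0018 and 0.0039). The annotated extents of FADS1 and FADS2 overlap on opposite strands of chromosome 11, and whether strand was used in counting is not given in the sources used here.

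**Figure D4:**
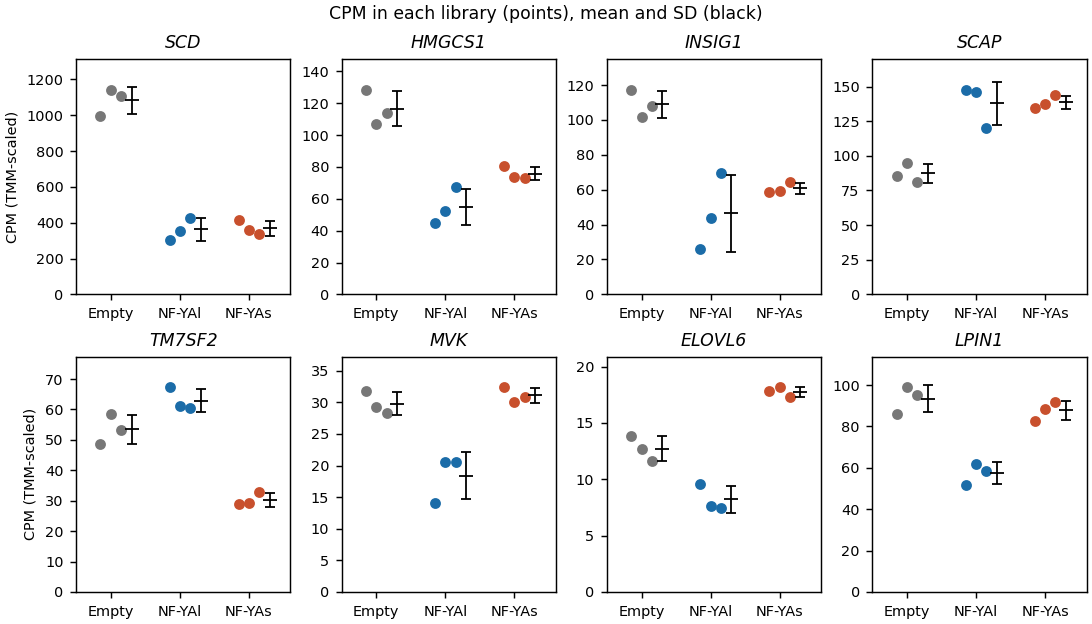
CPM in each library (points, in letter order within a group) with the group mean and SD in black for 8 genes, on axes that start at 0, for Empty (grey), NF-YAl (blue) and NF-YAs (red). SCD, HMGCS1 and INSIG1 lie below Empty and SCAP above it in both lines, while in the lower row TM7SF2, MVK, ELOVL6 and LPIN1 separate NF-YAl from NF-YAs.

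NF-YAl and NF-YAs libraries were then compared with each other, to ask which of the genes differed between them. Each form is represented by 1 line, and NFYA itself was measured higher in all NF-YAl libraries than in NF-YAs, so splice form, line and NFYA level cannot be told apart. Of the 35 genes 3 were lower in NF-YAl (MVK, ELOVL6 and LPIN1) and 1 was higher (TM7SF2), against 6.25% and 4.70% of all tested genes, shares close to those of the 35. The median log2FC of the 35 genes between the lines was -0.09. The count of lower genes was 9 without NF-YAl D, with HMGCS1, IDI1, FADS1, FADS2, INSIG1 and STARD4 added, and 1 without NF-YAs C.

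TM7SF2, a sterol C14 reductase (chr11:64879317-64883856, plus strand), was at 48.8, 58.4 and 53.1 CPM in Empty, 67.3, 61.1 and 60.5 CPM in NF-YAl and 28.8, 29.2 and 32.9 CPM in NF-YAs. The groups did not overlap, with NF-YAl highest and NF-YAs lowest. TM7SF2 was higher in NF-YAl than in NF-YAs (log2FC 1.06 ± 0.10, adjusted p = 4.3e-05) and fell in NF-YAs against Empty (-0.82 ± 0.10, 7.8e-05), with 0.24 ± 0.10 in NF-YAl (0.092, edgeR). The extent of TM7SF2 overlaps that of VPS51 on the same strand, which rose in NF-YAs (log2FC 0.46, edgeR adjusted p = 0.0098) and did not pass between the lines (-0.18, 0.29). The VPS51 call was lost without any 1 of the Empty or NF-YAs libraries (edgeR adjusted p 0.013 to 0.056).

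MVK, which phosphorylates mevalonate (chr12:110011060-110035930, plus strand), was at 31.7, 29.3 and 28.3 CPM in Empty, 14.1, 20.5 and 20.6 CPM in NF-YAl and 32.4, 30.1 and 30.9 CPM in NF-YAs. NF-YAl lay below both other groups, which overlapped. MVK was lower in NF-YAl than in NF-YAs (-0.75 ± 0.14, adjusted p = 0.0025) and than in Empty (-0.69 ± 0.14, 0.0024), with 0.06 ± 0.14 in NF-YAs (0.75, edgeR). The call between the lines was lost without NF-YAs A, B or C, and that against Empty without Empty A (edgeR adjusted p 0.010 to 0.013). MMAB, a cobalamin enzyme gene whose extent overlaps MVK on the other strand, had -0.57 in NF-YAl, -0.19 in NF-YAs and -0.38 between the lines (edgeR adjusted p = 0.0067, 0.30 and 0.062). Its NF-YAl call was lost on leaving out any 1 Empty library, NF-YAl B or any 1 NF-YAs library (0.010 to 0.033).

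ELOVL6, which elongates palmitate to stearate (chr4:110967002-111120355, minus strand), was at 13.8, 12.7 and 11.7 CPM in Empty, 9.60, 7.65 and 7.43 CPM in NF-YAl and 17.9, 18.2 and 17.3 CPM in NF-YAs. The lines lay on opposite sides of Empty with no overlap. ELOVL6 was lower in NF-YAl than in NF-YAs (-1.11 ± 0.14, adjusted p = 0.00020) and than in Empty (-0.63 ± 0.14, 0.0038), and its difference of 0.48 ± 0.13 in NF-YAs did not pass (0.014, edgeR). The call against Empty was lost without Empty A, Empty B or NF-YAl B (edgeR adjusted p 0.014 to 0.020). The NF-YAs difference passed without NF-YAl A or D, which alters only the shared spread (0.0036 and 0.0063).

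LPIN1, the phosphatidate phosphatase of triglyceride synthesis (chr2:11817721-11967535, plus strand), was at 86.2, 98.9 and 95.2 CPM in Empty, 51.7, 61.9 and 58.7 CPM in NF-YAl and 82.8, 88.4 and 92.0 CPM in NF-YAs. Again NF-YAl stood apart from the other groups, which overlapped. LPIN1 was lower in NF-YAl than in NF-YAs (-0.61 ± 0.10, edgeR adjusted p = 0.0012) and than in Empty (-0.70 ± 0.10, 0.00024), and had -0.09 ± 0.10 in NF-YAs (0.51). The call between the lines was lost without NF-YAs C (edgeR adjusted p = 0.010).

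The sterol and fatty acid genes were set against each other as medians. The median log2FC of the sterol enzymes minus that of the fatty acid genes was -0.43 in NF-YAs, 0.08 in NF-YAl and 0.37 between the lines. Computed in each library from log2 CPM relative to the Empty mean, the difference was -0.35, -0.47 and -0.42 in NF-YAs A, B and C, and 0.06, 0.02 and 0.01 in Empty A, B and C. The NF-YAs libraries all lay below the Empty libraries. In NF-YAl A, B and D it was -0.30, -0.01 and 0.33, a spread that covers the Empty libraries, so no direction holds in that line. Without NF-YAl D the NF-YAl value turned to -0.14, without NF-YAl A it was 0.17, and without Empty C 0.03.

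The motif counts can be laid beside these values as a description of a few genes. The 3 fatty acid genes that fell in both lines (ACLY, SCD and ACSS2) held CCAAT in the window searched. ACACA held the letters too and did not pass in either line (log2FC -0.30 and -0.19). The 4 without the letters (ELOVL6, FADS1, FADS2 and LPIN1) fell in NF-YAl and did not pass in NF-YAs, where their log2FC ran from -0.47 to 0.48. Among all 20 genes with CCAAT, 13 fell in NF-YAl and 11 in NF-YAs, with median log2FC of -0.69 and -0.63. Of the 11 genes without, 6 fell in NF-YAl and 2 in NF-YAs (CYP51A1 and INSIG2), with medians of -0.53 and -0.16. Over all tested genes 9.54% fell in NF-YAl and 10.5% in NF-YAs. With so few genes, 2 of 11 is not read as different from that share. FADS2 (lower) and ELOVL6 (higher) did pass in NF-YAs with DESeq2, with only the 2 groups fitted and without NF-YAl A or D, so the split of fatty acid genes rests on the threshold. This split was made after the values had been seen and was not tested.

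The genes that control SREBP did not move as a unit. SREBF1 was at 84.8, 95.1 and 84.9 CPM in Empty, 71.6, 80.5 and 66.3 CPM in NF-YAl and 74.0, 81.5 and 80.8 CPM in NF-YAs. SREBF2 was at 109, 112 and 110 CPM in Empty, 88.8, 104 and 89.0 CPM in NF-YAl and 95.6, 97.6 and 103 CPM in NF-YAs. Both lay below Empty in all libraries of both lines, but by -0.16 to -0.28 on the log2 scale, and neither passed (edgeR adjusted p 0.050 to 0.22).

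SCAP, the escort of SREBP (chr3:47455171-47518616, minus strand), was the only one of the 35 genes to rise. It was at 85.7, 94.9 and 81.3 CPM in Empty, 148, 146 and 120 CPM in NF-YAl and 134, 138 and 144 CPM in NF-YAs. All libraries of both lines were above Empty and overlapped each other. SCAP rose by 0.66 ± 0.10 in NF-YAl and 0.67 ± 0.10 in NF-YAs (log2, edgeR adjusted p = 0.00049 and 0.00041), a call kept on leaving out each library.

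INSIG1 and INSIG2, the sterol-dependent anchors of SCAP, had lower levels in both lines. INSIG1 (chr7:155089486-155101945, plus strand) was at 117, 102 and 108 CPM in Empty, 25.8, 43.9 and 69.4 CPM in NF-YAl and 58.7, 59.2 and 64.4 CPM in NF-YAs. INSIG2 (chr2:118846028-118868573, plus strand) was at 43.9, 46.1 and 43.9 CPM in Empty, 22.9, 23.6 and 35.5 CPM in NF-YAl and 22.9, 18.6 and 17.1 CPM in NF-YAs. Neither gene overlapped Empty in either line, and NF-YAl A, B and D were far apart for INSIG1. INSIG1 fell in NF-YAl (-1.23 ± 0.25, edgeR adjusted p = 0.0027), and its -0.84 ± 0.25 in NF-YAs did not pass (0.019) although it did without NF-YAl A or D (0.00030 and 0.00053). INSIG2 fell by 0.70 ± 0.16 in NF-YAl and 1.19 ± 0.17 in NF-YAs (log2, edgeR adjusted p = 0.0058 and 0.00017). The INSIG1 call in NF-YAl was lost without Empty A or NF-YAl B, and the INSIG2 call in NF-YAl without Empty A, B or C, NF-YAl A or B, or NF-YAs B (edgeR adjusted p 0.010 to 0.029). Neither passed between the lines (-0.39, adjusted p = 0.28 and 0.49, 0.052).

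In the edgeR fit used throughout, with all 9 libraries, the transport genes did not pass in any comparison. NPC1, which exports cholesterol from lysosomes, was at 263, 282 and 294 CPM in Empty, 231, 217 and 205 CPM in NF-YAl and 287, 265 and 301 CPM in NF-YAs. Its NF-YAl libraries were below all others, at the edge of the threshold (-0.36 ± 0.09, edgeR adjusted p = 0.010, and -0.39 ± 0.09 and 0.011 between the lines), and without NF-YAl A both differences passed (0.0055 and 0.0063). With DESeq2 on all 9 libraries both NPC1 differences also passed (adjusted p = 0.00084 and 0.00052). STARD4, a carrier of sterol between membranes, had -0.25 in NF-YAl and 0.32 in NF-YAs. Without NF-YAl D its value was -0.61 against Empty and -0.93 between the lines, and both were called (edgeR adjusted p = 0.0042 and 0.00053). With a replicate block on all 9 libraries both STARD4 differences were called too (edgeR adjusted p = 0.0078 and 0.0011). ABCA1, the cholesterol exporter, was at 49.4, 49.7 and 53.4 CPM in Empty, 53.8, 30.5 and 30.5 CPM in NF-YAl and 36.1, 35.8 and 34.1 CPM in NF-YAs. NF-YAl A alone was at the level of Empty, and without it ABCA1 was called lower in NF-YAl (edgeR adjusted p = 6.7e-05). In NF-YAs the log2FC of ABCA1 was -0.53 with all 9 libraries (edgeR adjusted p = 0.040). Leaving out NF-YAl A changed little there but the shared spread, and that difference then passed (0.00022). It also passed with only Empty and NF-YAs fitted (edgeR adjusted p = 5.4e-05).

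Per length, the order of the 35 genes in Empty ran from SCD (228 ± 22 TPM, SD, n = 3), FADS2 (206 ± 24 TPM), FDPS (186 ± 23 TPM), EBP (121 ± 12 TPM) and ACLY (109 ± 16 TPM) to STARD4 (7.84 ± 1.8 TPM), ABCA1 (5.51 ± 0.78 TPM) and ELOVL6 (4.71 ± 1.2 TPM). SCD and FADS2, neighbours in this order, differed by less than the SD of either, and EBP and ACLY by less than the SD of ACLY. Among SREBP control genes INSIG1 had 43.0 ± 10 TPM, against 20.9 ± 3.2 TPM for INSIG2, 24.8 ± 4.2 TPM for SCAP, 24.1 ± 3.8 TPM for SREBF2 and 22.2 ± 3.2 TPM for SREBF1.

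Other genes of the same pathways were taken from a list of 36, all of which were tested. In NF-YAl 7 fell and 2 rose, and in NF-YAs 6 fell and 2 rose, with median log2FC of -0.17 and -0.10. Over all tested genes 9.54% fell and 10% rose in NF-YAl, and 10.5% fell and 12.1% rose in NF-YAs, so the counts of rises lie below these shares and the counts of falls above them, and with counts this small nothing particular to the list is read from them. None of the 6 further sterol branch genes on the list passed in either line. MID1IP1, an activator of acetyl-CoA carboxylase, was at 149, 170 and 164 CPM in Empty, 20.7, 44.1 and 60.7 CPM in NF-YAl and 38.8, 40.4 and 42.7 CPM in NF-YAs. It fell by 1.94 ± 0.27 and 1.99 ± 0.27 (log2, edgeR adjusted p = 0.00021 and 0.00015), with a larger point estimate in each line than any of the 35 genes. ME1, a source of NADPH, fell by 0.62 ± 0.14 in NF-YAl and 0.89 ± 0.14 in NF-YAs (0.0041 and 0.00036, edgeR), and the NF-YAl call was lost without any 1 Empty library or NF-YAl B (edgeR adjusted p 0.012 to 0.024). GPAM, the first enzyme of glycerolipid synthesis, rose by 0.63 ± 0.10 and 0.58 ± 0.10 (0.00053 and 0.00089, edgeR).

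Of the 7 cholesterol handling genes, ABCG1 and LIPA differed between the lines and 5 did not pass there. NR1H3, which encodes the oxysterol receptor LXR alpha, fell by 0.69 ± 0.14 in NF-YAl and 0.81 ± 0.15 in NF-YAs (log2, edgeR adjusted p = 0.0033 and 0.0010). ABCG1, a cholesterol exporter, was at 6.12, 7.31 and 6.10 CPM in Empty, 10.4, 7.73 and 8.54 CPM in NF-YAl and 17.2, 19.6 and 18 CPM in NF-YAs. All libraries of both lines were above Empty and NF-YAs was above NF-YAl. ABCG1 rose in NF-YAs (1.49 ± 0.15, adjusted p = 1.7e-05) and was lower in NF-YAl than in NF-YAs (-1.04 ± 0.15, 0.00050, edgeR). MYLIP, a ubiquitin ligase for lipoprotein receptors, rose in NF-YAl (0.84 ± 0.20, edgeR adjusted p = 0.0061) and did not pass between the lines (0.76, 0.017; DESeq2 adjusted p = 0.0031). LIPA, the lysosomal acid lipase, fell in NF-YAl by 0.74 ± 0.12 (0.00047) and was lower there than in NF-YAs (-0.62 ± 0.12, 0.0028, edgeR), as was ACACB, the mitochondrial acetyl-CoA carboxylase (-0.51 ± 0.11, 0.0054). Of these calls, that of NR1H3 in NF-YAl was lost without any 1 Empty library or NF-YAl B, and that of MYLIP without any 1 Empty library, NF-YAl A, NF-YAs A or NF-YAs C. Between the lines, that of LIPA was lost without NF-YAl B or any 1 NF-YAs library, and that of ACACB without Empty A, Empty C, NF-YAl A or any 1 NF-YAs library (edgeR adjusted p 0.010 to 0.035 over all these).

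Transcript use was examined as the share of each gene taken by its leading transcript, for the 27 genes with at least 2 transcripts and 10 CPM in a group. No gene separated NF-YAl from Empty, against 15.5% of the 6914 genes so examined. NF-YAs separated from Empty without overlap for 9 of 27 genes (33.3%), against 20.0%, with 7 shares higher (HMGCS1, IDI1, LSS, CYP51A1, LPIN1, SREBF1 and SREBF2) and 2 lower (ACLY and FADS2). NF-YAl separated from NF-YAs for 5 of 27 (18.5%), against 15.2%, all with lower shares (CYP51A1, ELOVL6, ACSS2, LPIN1 and SREBF2). With 3 libraries per group an exact two-sided permutation test cannot go below p = 0.1, and after adjustment over the 81 tests of shares the lowest p was 0.58. Leaving out a library makes separation easier, and the counts then became 8 without NF-YAl A and 7 without NF-YAl B for NF-YAl, 15 without NF-YAs B for NF-YAs, and 9, 11 and 10 without NF-YAl A, NF-YAl B and NF-YAs B between the lines.

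The share of the CYP51A1 transcript NM_000786.3 was 78.5%, 83.4% and 80.8% in the Empty libraries, 68.3%, 82.5% and 72.5% in those of NF-YAl and 93.0%, 93.7% and 93.8% in those of NF-YAs. The NF-YAs libraries were above all others and close together. CYP51A1 lies across AKAP9 and CYP51A1-AS1 on the opposite strand, and AKAP9 did not pass against Empty (edgeR log2FC 0.15 and -0.31) but was higher in NF-YAl than in NF-YAs (0.46, edgeR adjusted p = 0.0087). That call was lost on leaving out any 1 library except NF-YAl D (0.010 to 0.055). For SREBF2 the share of NM_004599.3 was 89.8%, 94.6% and 90.9% in the Empty libraries, 91.5%, 94.3% and 93.0% in those of NF-YAl and 96.3%, 97.9% and 96.4% in those of NF-YAs, and NF-YAs was again above both groups. For SREBF1 the share of NM_004176.4 was 62.0%, 61.6% and 63.6% in the Empty libraries, 70.0%, 57.6% and 51.3% in those of NF-YAl and 71.6%, 67.9% and 69.3% in those of NF-YAs. Here NF-YAs was above Empty, while NF-YAl spread across both. RSEM divides reads among overlapping transcripts, so these shares are estimates.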

How the data were processed

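For each of the 9 libraries the authors deposited RSEM expected counts and TPM for genes and transcripts, and the percent of its gene that each transcript takes. Per the labels and methods, libraries were made with a stranded total RNA kit, and reads were aligned to GRCh37 transcripts with Bowtie2 within RSEM 1.3.1. Strand settings are not given in the sources used here.

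After rounding, expected counts entered edgeR 4.0.16 (filterByExpr, TMM, 3 groups in 1 quasi-likelihood fit, Benjamini-Hochberg over 17108 genes) in R 4.3.3, with adjusted p under 0.01 as the threshold. The study used DESeq2, which is an alternative here (1.42.0). Others were RLE scaling, low-count filters, a 2-group fit, a replicate block, limma 3.58.1 on log2(TPM + 1), an adjusted p of 0.05 and leaving out each library. A rescaled TPM fit was added after seeing the data. On simulated counts for NF-YAl against Empty, edgeR recovered 188 of 200 changed genes among 16875 tested, with 3 false calls.

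Members and lists were chosen with earlier results of these data known. All 35 genes are named. Of the 36 other pathway genes, the text names up to 3 per comparison and direction with the largest |log2FC| past the threshold. Overlapping genes and copies were named after their values were seen. Gene positions are from GENCODE on GRCh37, promoters from RefSeq on GRCh38.p14. Medians per library used CPM with 0.5 added. Columns for length were not used. 1 marker gene is not reported here.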

Additional observations from a re-analysis of the deposited data

Results flagged for a closer look

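The effect in NF-YAl minus the effect in NF-YAs, which is the direct contrast of the lines in the same edgeR fit, passed an adjusted p of 0.01 for 4 of the 35 genes. On the log2 scale it was 1.06 for TM7SF2 (higher in NF-YAl in all 3 libraries), and -1.11 for ELOVL6, -0.75 for MVK and -0.61 for LPIN1 (lower in NF-YAl in all 3 libraries of each). No explanation was tested.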

How the results depend on the processing

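The direction of every named member difference that passed was the same under all alternatives run, and no call was reversed. Counts moved as follows. With DESeq2, 2 members rose in NF-YAs and 6 were lower in NF-YAl than in NF-YAs. With only the 2 groups compared in the fit, 10 fell in NF-YAl, and in NF-YAs 2 rose and 21 fell. At an adjusted p of 0.05, 2 rose in NF-YAs and 8 were lower in NF-YAl than in NF-YAs. With limma on deposited TPM, 0 rose and 1 fell in each line and 0 were lower in NF-YAl than in NF-YAs. After rescaling of TPM, an alternative chosen after seeing the data, the counts were 16, 13 and 3, so the library scale accounts for most of that loss. With 1 library left out, 11 to 25 fell in NF-YAl, 9 to 19 fell and 1 to 2 rose in NF-YAs, 1 to 9 were lower in NF-YAl than in NF-YAs, and the sterol minus fatty acid median in NF-YAl ran from -0.14 to 0.17. The members whose transcript share separated then numbered 1 to 8, 9 to 15 and 5 to 11 in the 3 comparisons. NFYA between the lines (log2FC 0.39) passed with DESeq2 (0.39) and at an adjusted p of 0.05 (0.39), and ran from 0.30 to 0.50 with 1 library left out. Replicate letters did not clearly pair the libraries. Same-letter deviations correlated at -0.07 to 0.25 (mean 0.09), and different-letter deviations at -0.22 to 0.16 (mean -0.03). These ranges overlap and the pairs are few, so whether the letters mark paired experiments cannot be told. With the replicate block, 25 members fell in NF-YAl, 19 fell and 2 rose in NF-YAs, 9 were lower in NF-YAl than in NF-YAs, and that median was -0.17. The p-values rest on 3 libraries per group, and the spread of NF-YAl limits what could be called in the sterol enzymes.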
